A study of Bos taurus with 6 samples.

Results

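FGF and ERK signalling was examined in bovine blastocysts through 9 genes, namely the ligands FGF2 and FGF4, the receptors FGFR1 and FGFR2, the adaptor GRB2, the kinases MAP2K1 (MEK1) and MAPK3 (ERK1), and the feedback inhibitors DUSP6 and SPRY2. They were taken by gene symbol from a table of 36075 genes, and each symbol matched 1 row. Blastocysts grown from oocytes that had matured for 22 h in medium with 1e-07 mol/L melatonin (MT-treated, 3 libraries) were set against a control group whose oocytes matured in its absence (3 libraries). Both groups came from ovaries collected at a slaughterhouse, were fertilized and cultured in vitro, and differed in no other stated treatment. Each library was a pool of 3 blastocysts, and the breed, the age of the donors and the sex of the embryos are not given in the sources used here. In such bulk samples, fewer cells of a type and less RNA per cell cannot be told apart.

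FGF ligands bind receptor tyrosine kinases on the cell surface, with heparan sulfate proteoglycans as co-receptors. The active receptor recruits the adaptors FRS2 and GRB2 and the exchange factors SOS1 and SOS2, which switch on RAS, and RAS passes the signal through the kinases RAF, MEK and ERK. ERK then induces its own inhibitors, among them the phosphatase DUSP6 and the Sprouty proteins. In the mammalian blastocyst this pathway is best known for directing cells of the inner cell mass towards hypoblast, and in ruminants FGF2 is known for its action on the trophectoderm.

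The values are TPM, in which reads are scaled for gene length and for library size, so that levels of different genes can be set side by side. TPM holds no read counts, and the depth behind a value is unknown. The control libraries listed 8854 to 8953 genes above 0 and the MT-treated libraries 14372 to 14408. Across genes, the log2(TPM + 1) values of libraries of the same group correlated at 0.991 to 0.999 and those of different groups at 0.544 to 0.546. Among 11953 genes with at least 1 TPM in at least 3 libraries, 4037 were listed at 0 in every control library and 360 in every MT-treated library. The genes at 0 in every control library included 13 of 30 mediator subunits and 6 of 31 subunits of RNA polymerases I, II and III, machinery that all cells use, so a gene at 0 is described here only as listed at 0. How many molecules lie behind the control values, and whether the columns of both groups were made by the same steps, cannot be read from the table, which bears on every difference given here. These sets were looked up after the values were seen. Most tested genes passed the test of the difference between groups (limma with Benjamini-Hochberg adjustment over all 11953 genes, threshold 0.05). Of the tested genes, 61.6% were called higher and 34.1% lower in MT-treated blastocysts, and for 96.1% the 2 groups of libraries did not overlap. A call or a separation of groups is therefore the usual state of a gene in these libraries. The share of higher genes among the calls was 64.4%, and it was 43.7% among the 6925 genes above 0 in all libraries, 51.1% after quantile normalization, which gives all libraries 1 distribution, and 73.5% after median centring, which removes a log2 shift of -0.48 between the groups.

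The labelled tissue was checked against its markers. The trophectoderm keratins KRT8 and KRT18 were abundant in every library, at 6756 to 8828 TPM and at 2726 to 3694 TPM. POU5F1 lay between 188 and 194 TPM in all 6 libraries. CDX2 and ELF5, transcription factors of the trophectoderm, and NANOG of the inner cell mass were listed at 0 in every control library, whereas CDX2 had 15.0 to 17.2 TPM and NANOG 8.23 to 8.93 TPM in the MT-treated libraries. TFAP2A, also a trophectoderm factor, went the other way, from 31.5 to 38.9 TPM in control to 0.46 to 0.55 TPM in MT-treated libraries. The 11 trophectoderm markers found in the table summed to 11608 to 11947 TPM in control and 10914 to 11271 TPM in MT-treated libraries. KRT8 and KRT18 made up nearly all of this sum, which says little of the transcription factors. The summed level of 8 hypoblast markers was 18.3 to 18.9 TPM in control and 92.1 to 101 TPM in MT-treated libraries, with GATA4 and FOXA2 at 0 throughout and 4 others at 0 in control alone. The 7 inner cell mass markers found in the table summed to 326 to 328 TPM in control and 372 to 383 TPM in MT-treated libraries. Of 11 cumulus and granulosa markers in the table, 9 were at 0 in every control library and 5 in every MT-treated library, and FSHR made up nearly the whole sum of 15.1 to 19.3 TPM. Of 12 oocyte markers, 7 were at 0 throughout, among them GDF9, ZP2, ZP3, ZP4 and NLRP5. OOEP made up all of their sum in control, with 45.6 to 49.3 TPM, and had 20.5 to 22.5 TPM in MT-treated libraries, where ZAR1, MOS and BMP15, at 0 in control, had 0.20 to 0.89 TPM. The part of these cell type differences in the values below was not tested.

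Of the 9 genes, 4 were listed at 0 in every control library and above 3 TPM in every MT-treated library (FGF2, FGFR1, FGFR2 and SPRY2), and FGF4 was listed at 0 in all 6 libraries. DUSP6 went the other way, from over 40 TPM to under 1 TPM. GRB2 and MAP2K1 differed by a small amount, and MAPK3 was low in both groups. In the fit over all genes, 5 were called higher and 3 lower (62.5% and 37.5% of the 8 tested, beside 61.6% and 34.1% of all tested genes). Only GRB2 and MAP2K1 reached 1 TPM in both groups. The other 6 tested genes passed the filter through the group in which they were high and so had to differ. No weight can be placed on their count, their p-values or the separation of their groups. The same holds for every gene of the lists given here with less than 1 TPM in each library of a group. Such values were common at the same level. Of 5863 tested genes with an MT-treated mean between those of FGFR2 and FGF2 (3.33 to 24.7 TPM), 46.9% were listed at 0 in every control library.

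**Figure D1:**
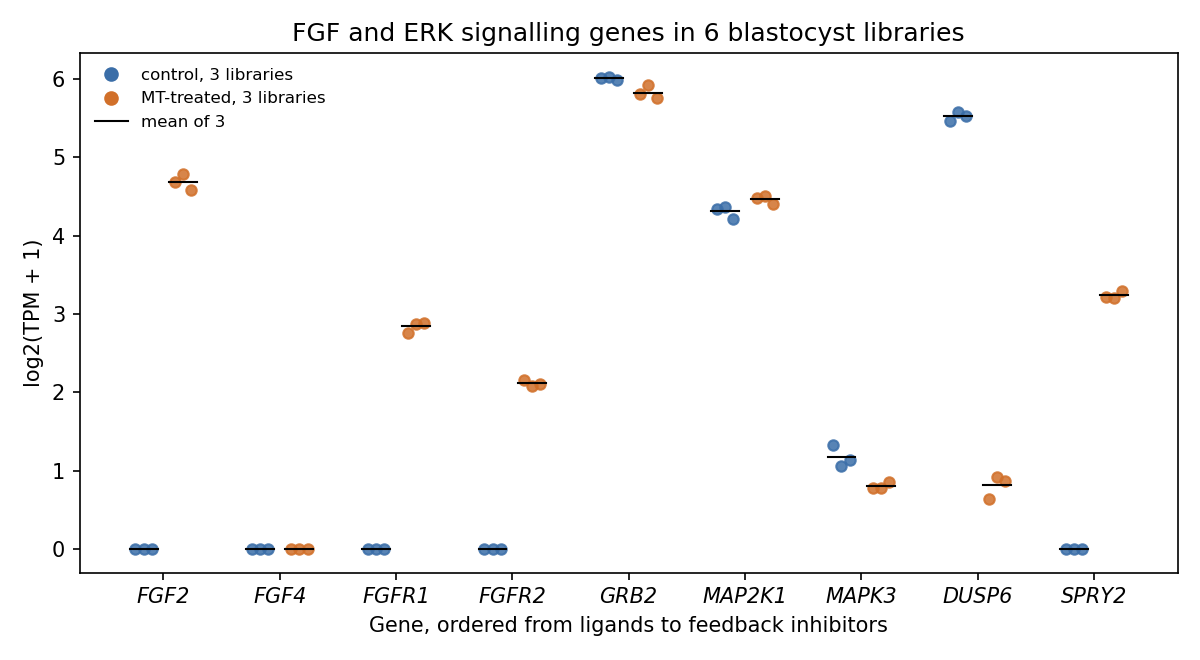
Level of each of the 9 genes, as log2(TPM + 1), in the 3 control (blue) and 3 MT-treated (orange) libraries, with the mean of each group as a bar. FGF2, FGFR1, FGFR2 and SPRY2 sit at 0 in control, and DUSP6 falls from over 40 TPM to under 1 TPM. For GRB2 and for MAP2K1, the control and MT-treated values lie close together.

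FGF2, a heparin-binding ligand, was the most abundant FGF in MT-treated blastocysts, and FGF4, the ligand made by the epiblast in the mouse, was listed at 0 in every library. FGF2 had 24.7, 26.6 and 22.9 TPM after MT treatment and 0 in each control library (adjusted p = 2.73e-09, limma). That the groups were fully apart was fixed by the filter. The MT-treated values placed FGF2 above 69.7% to 72.9% of the genes detected in those libraries. FGF4 had 0 TPM in each of the 6 libraries and was not tested. In the RefSeq gene order (assembly ARS-UCD2.0, used here for order alone) FGF4 lies between FGF19 and FGF3, which were also at 0 throughout. Beyond them on either side are CCND1, listed at 0 in control and at 2.20 to 2.66 TPM in MT-treated libraries, and ANO1, at 0 throughout.

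Of 18 FGF ligand genes in the list, 13 were at 0 in all libraries and 5 were tested, 4 of them called higher and 1 lower (beside 61.6% and 34.1% of all tested genes). FGF9 (10.96, 12.27 and 12.03 TPM), FGF10 (5.78, 6.53 and 6.54 TPM) and FGF21 (4.62, 4.01 and 5.99 TPM), the last an endocrine member, were like FGF2 listed at 0 in every control library. FGF21 was not called after quantile normalization (adjusted p = 0.0548, limma). FGF18 was the only ligand with a value in control. It had 22.76, 29.97 and 22.89 TPM there and 8.82, 4.22 and 10.4 TPM in MT-treated blastocysts, a log2 difference of -1.64 (standard error 0.31, adjusted p = 0.00218, limma). The groups of FGF18 did not overlap, although its coefficient of variation of 41.0% in MT-treated libraries was far above that of FGF2 (7.38%). Summed ligand TPM reached 25.2 ± 4.13 in control, all of it FGF18, and 55.4 ± 2.18 in MT-treated blastocysts (SD, n = 3 each), of which FGF2 made up 44.7% ± 4.98 and FGF18 13.96% ± 5.35.

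Both receptors of the set appeared with the same pattern, at a lower level than FGF2. As for FGF2, the filter fixed the separation of their groups. FGFR1 had 5.76, 6.34 and 6.39 TPM after MT treatment and 0 in each control library (adjusted p = 6.84e-09, limma). FGFR2 had 3.46, 3.23 and 3.30 TPM against 0 in each control library (adjusted p = 5.90e-09, limma). FGFR1 exceeded FGFR2 in each MT-treated library, by a log2(TPM + 1) ratio of 0.60, 0.80 and 0.78. After quantile normalization the difference of FGFR2 was -0.06, which was still called, and that of FGFR1 was 0.31, so the direction for FGFR2 depended on the scaling. Why it turned was not tested.

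FGFR4 was the only one of the signalling receptors FGFR1 to FGFR4 above 0 in control, with 0.04, 0.04 and 0.11 TPM. It had 7.35, 6.64 and 7.19 TPM in MT-treated libraries and was the most abundant receptor there, with 38.1% ± 1.22 of the summed TPM of the 4 receptors, followed by FGFR1 with 33.3% ± 2.28, FGFR2 with 18.0% ± 0.464 and FGFR3 with 10.6% ± 0.783 (SD, n = 3). The summed receptor level was 0.04 to 0.11 TPM in control and 18.0 to 18.8 TPM in MT-treated libraries. Of the 16 identifiers of FGF receptors and co-receptors, all were tested, and 13 were called higher and 3 lower (beside 61.6% and 34.1% of all tested genes). In every control library 7 were at 0, as were 33.8% of all tested genes. After quantile normalization the split was 6 higher and 10 lower, and FGFR3, FGFR4, FGFRL1, KLB, GPC1 and 1 of the 2 GPC6 identifiers had a negative difference.

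The syndecans and glypicans are heparan sulfate proteoglycans that serve as co-receptors. SDC1, a syndecan, fell, with 43.8 ± 1.82 TPM in control and 4.82 ± 0.0346 TPM after MT treatment (SD, n = 3 each), a log2 difference of -2.94 (adjusted p = 3.37e-09, limma). SDC2 reached 36.3, 33.0 and 34.2 TPM in MT-treated libraries and was listed at 0 in control throughout. SDC4 rose by a small amount, from 40.8 ± 1.22 to 46.9 ± 0.790 TPM (SD, n = 3 each; log2 difference 0.20, adjusted p = 0.000784, limma). Its difference was 0.68 with median centring and 0.48 with quantile normalization. The sum of the 4 syndecans was 84.6 ± 1.74 TPM in control and 91.5 ± 1.47 TPM in MT-treated blastocysts (SD, n = 3 each). GPC3 and GPC4, both glypicans, fell by 2.94 and 0.56 on the log2 scale. With median centring the difference of GPC4 was -0.09 and not called (adjusted p = 0.136, limma). The second GPC6 identifier had 0, 0.06 and 0 TPM in control and 11.3, 11.5 and 11.6 TPM in MT-treated libraries. Reads of a gene listed under 2 identifiers may be divided between them, and each value is uncertain. KL, a co-receptor for the endocrine ligand FGF23, had 0, 2.56 and 0 TPM in control and 29.1, 54.8 and 42.4 TPM in MT-treated libraries. The MT-treated values had the widest spread of the receptor list. FGF23 itself was at 0 in all libraries.

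GRB2, which links the receptor complex to SOS, was the most abundant of the 9 genes in both groups. Its TPM was 63.4, 64.3 and 62.6 in control and 54.8, 59.4 and 53.1 in MT-treated libraries. The groups did not overlap, and the log2 difference was -0.18 (standard error 0.04, adjusted p = 0.00679, limma). The sign turned to 0.30 with median centring and to 0.13 with quantile normalization, and both of these were called. On rank, which does not depend on the scale of a library, GRB2 lay above 68.1% to 68.9% of the 6925 tested genes present in all libraries in control and above 70.8% to 73.2% of them in MT-treated libraries. GRB2 thus had a lower TPM and a higher rank in MT-treated blastocysts. Of 5988 genes at 1 TPM or more in all libraries, 87.4% had a larger difference than GRB2.

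The other adaptors are the scaffolds and exchange factors around GRB2. Of 14 identifiers, 9 were tested, 3 called higher and 6 lower (beside 61.6% and 34.1% of all tested genes), and 5 did not reach the filter. With median centring the split was 5 higher and 3 lower, with PTPN11 not called and GRB2 and GAB2 (a docking protein, from -0.31 to 0.17 on the log2 scale) called higher. GAB1, a relative of GAB2, fell, with 67.0 ± 2.13 TPM in control and 19.3 ± 1.44 TPM after MT treatment (SD, n = 3 each; log2 difference -1.75). PTPN11, the phosphatase SHP2, had 95.2 ± 0.130 TPM in control and 68.4 ± 1.21 TPM in MT-treated blastocysts (SD, n = 3 each), a log2 difference of -0.47 that was 0.01 with median centring. CRK, an adaptor, fell, with 16.1 ± 0.484 TPM in control and 9.74 ± 0.964 TPM after MT treatment (SD, n = 3 each; log2 difference -0.67, adjusted p = 0.000119, limma). Its difference was -0.19 with median centring and -2.51 with quantile normalization, called in both. SHC1 and CBL, the latter a ubiquitin ligase that removes active receptors, were listed at 0 throughout control, with 6.17 to 6.99 TPM and 11.7 to 12.6 TPM after MT treatment. CRKL is listed under 2 identifiers with opposite signs, 11.7 ± 0.196 and 5.40 ± 0.162 TPM for the more abundant in control and 1.51 ± 0.180 and 7.38 ± 2.51 TPM for the other (control and MT-treated, SD, n = 3 each), and the second had a negative difference after quantile normalization. The exchange factors SOS1 and SOS2 together had 0 TPM in control and 0.93 to 0.97 TPM in MT-treated libraries.

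MAP2K1, the kinase that phosphorylates ERK, differed by a small amount between the groups. It had 19.3, 19.7 and 17.5 TPM in control and 21.3, 21.8 and 20.2 TPM in MT-treated libraries. The lowest MT-treated value lay just above the highest control value, and the log2 difference was 0.16 (standard error 0.05, adjusted p = 0.0292, limma). The call was lost without control replicate 3 (adjusted p = 0.0601, limma), MT-treated replicate 1 (0.0839) or MT-treated replicate 2 (0.0935), and the difference was -0.05 with quantile normalization and 0.64 with median centring. Over all alternatives its adjusted p ran from 4.66e-05 to 0.417 (limma). Its paralog MAP2K2 (MEK2) rose, with 10.1 ± 0.368 TPM in control and 19.6 ± 0.332 TPM after MT treatment (SD, n = 3 each), a log2 difference of 0.90 (adjusted p = 6.89e-07, limma). MAP2K1 therefore made up 65.1% ± 2.26 of the summed MEK level in control and 51.8% ± 1.29 in MT-treated blastocysts (SD, n = 3 each). With quantile normalization the log2 difference of MAP2K2 was 0.32, and with median centring it was 1.38. The within-library log2 ratio of MAP2K1 to MAP2K2 fell from 0.84 ± 0.133 to 0.10 ± 0.0713 (SD, n = 3 each), with no overlap (exact permutation test, two-sided, p = 0.1, the smallest p that 3 libraries against 3 allow; 0.125 when adjusted over the 5 ratios computed).

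MAPK3 was low in both groups. It had 1.51, 1.09 and 1.19 TPM in control and 0.72, 0.72 and 0.81 TPM in MT-treated libraries. The groups did not overlap, which the filter fixed for a gene under 1 TPM in each MT-treated library. The log2 difference was -0.37 (standard error 0.07, adjusted p = 0.00297, limma). It was 0.11 and not called with median centring and -2.05 with quantile normalization (adjusted p = 0.179 and 2.88e-07, limma). Centring shifts log2(TPM + 1) by a constant, which near 1 TPM is not a scaling of TPM. The ratio of mean TPM, MT-treated over control, was 0.59.

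Upstream of MEK stand ARAF and BRAF, both RAF kinases that phosphorylate it. ARAF fell, with 96.0 ± 0.759 TPM in control and 27.3 ± 0.714 TPM after MT treatment (SD, n = 3 each; log2 difference -1.78, adjusted p = 5.74e-09, limma). BRAF reached 44.9, 39.6 and 43.2 TPM in MT-treated libraries and was listed at 0 throughout control. These genes together had 96.0 ± 0.759 TPM in control and 69.9 ± 3.43 TPM in MT-treated blastocysts (SD, n = 3 each), and ARAF held 38.3% to 40.1% of that level after MT treatment. The GTPase genes HRAS and NRAS fell. HRAS had 54.98 ± 1.38 TPM in control and 36.0 ± 2.91 TPM after MT treatment (SD, n = 3 each; log2 difference -0.60, adjusted p = 9.42e-05, limma). With median centring this difference was -0.12 and not called (adjusted p = 0.0904, limma). NRAS had 37.3 ± 0.732 and 20.9 ± 0.647 TPM (control and MT-treated, SD, n = 3 each; log2 difference -0.80, adjusted p = 7.48e-07, limma). Its difference was -0.32 with median centring and -0.81 with quantile normalization, called in both. Of 17 tested genes from RAS to ERK, 5 were called higher and 10 lower (beside 61.6% and 34.1% of all tested genes), and 2 were not called. With median centring 7 were higher and 6 lower. MRAS, listed at 0 in control and at 18.3 to 22.9 TPM in MT-treated libraries, and RRAS2, with 3.42 ± 0.298 and 21.8 ± 0.482 TPM, were higher, and RRAS and the scaffold SHOC2 were lower, with log2 differences of -1.85 and -1.83. PEBP1, an inhibitor of RAF kinases, was the most abundant gene of the list, with 590 to 592 TPM in control and 581 to 587 TPM in MT-treated libraries, and was not called (adjusted p = 0.0922, limma). It was called higher with median centring (0.46) and with quantile normalization (0.08).

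**Figure D2:**
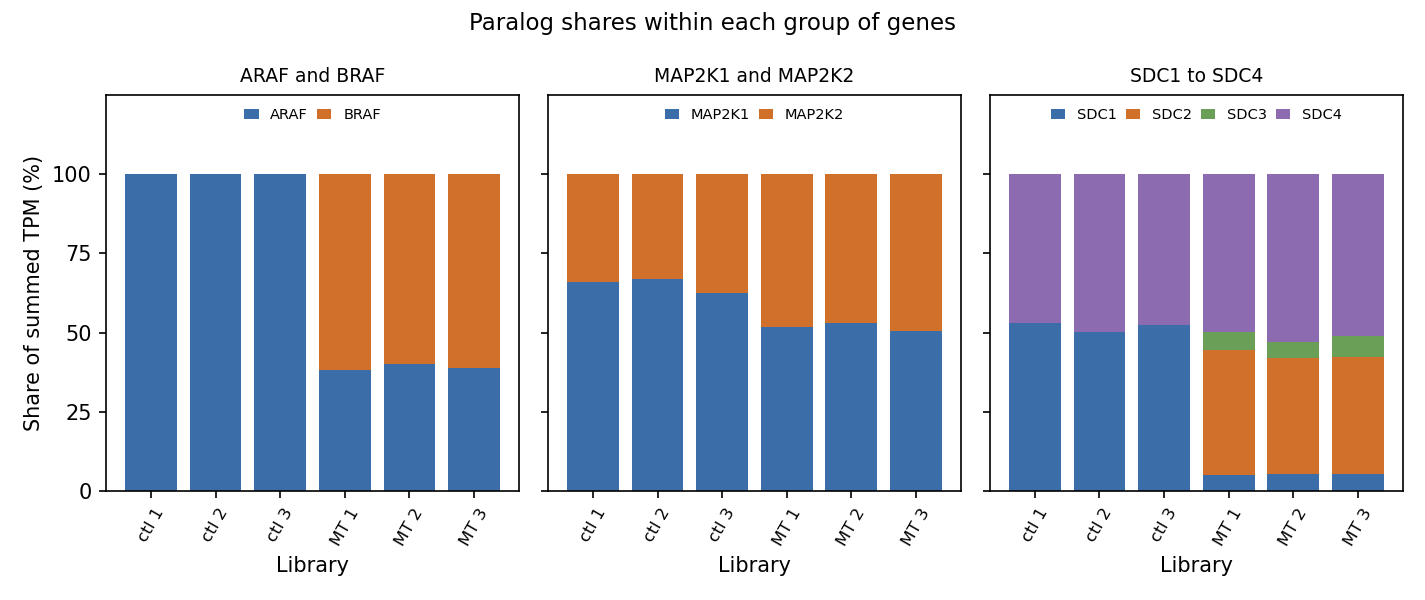
Share of each paralog in the summed TPM of the genes named above each panel (percent, stacked bars) in the 3 control (ctl) and 3 MT-treated (MT) libraries. BRAF is listed at 0 in the control libraries and takes 59.9% to 61.7% in MT-treated libraries, the share of MAP2K1 drops from between 62.6% and 66.8% to between 50.5% and 53.1%, and SDC1 drops from between 50.1% and 52.99% to between 5.17% and 5.39% while SDC4 holds 47.0% to 49.9% in control and 49.8% to 52.9% in MT-treated libraries.

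DUSP6 and SPRY2 are both feedback inhibitors that ERK activity is known to induce. DUSP6, a phosphatase that removes phosphate from ERK in the cytoplasm, had 43.0, 46.6 and 45.0 TPM in control and 0.56, 0.89 and 0.83 TPM in MT-treated libraries. The groups lay far apart, the ratio of mean TPM was 59.1-fold, and the log2(TPM + 1) difference was -4.71 (standard error 0.08, adjusted p = 1.14e-08, limma). It lay between -4.98 and -4.23 under the other scalings. The rank of DUSP6 among the 6925 genes present in all libraries moved from above 57.8% to 59.9% of them in control to above 2.50% to 3.45% in MT-treated libraries. Falls of this kind were not rare, since 10.4% of 1479 tested genes with a control mean of 30 to 60 TPM were under 1 TPM in every MT-treated library. SPRY2, an antagonist that acts between the receptor and RAF, reached 8.27, 8.24 and 8.77 TPM after MT treatment and was listed at 0 in each control library (adjusted p = 1.74e-09, limma). The within-library log2(TPM + 1) ratio of DUSP6 to SPRY2 was 5.52 ± 0.0555 in control and -2.43 ± 0.141 after MT treatment (SD, n = 3 each). These values describe the libraries and are no test, since each gene passed the filter only through the group in which it was high.

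Genes of the wider feedback list were called in both directions, as were genes at large. Of 19 genes, 9 were tested, 4 called higher and 5 lower (beside 61.6% and 34.1% of all tested genes), 6 were at 0 in all libraries and 4 did not reach the filter. The phosphatase DUSP1 reached 31.0, 30.5 and 28.2 TPM after MT treatment, against 0 in each control library. SPRED1, a relative of the Sprouty proteins that brings neurofibromin to RAS, rose, with 0.833 ± 0.122 TPM in control and 21.5 ± 1.54 TPM after MT treatment (SD, n = 3 each; log2 difference 3.62), and passed the filter only through the MT-treated libraries. Its partner NF1, which switches RAS off, fell, with 65.7 ± 2.47 TPM in control and 1.85 ± 0.0520 TPM after MT treatment (SD, n = 3 each; log2 difference -4.55, adjusted p = 8.18e-10, limma). The RAS inactivators RASA1 and RASA2 fell by 1.13 and 1.48 on the log2 scale, whereas their relative RASAL2 rose by 0.74 (adjusted p = 7.43e-06, limma). DUSP7 fell, with 3.07 ± 0.179 TPM in control and 0.197 ± 0.0850 TPM after MT treatment (SD, n = 3 each). SPRY1 was at 0 in all libraries, and SPRY3 and SPRY4 were at 0.03 TPM or less, so SPRY2 was the only Sprouty gene with a value above 1 TPM.

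Of 26 substrates and response genes of ERK, 16 were tested, 8 called higher and 7 lower (beside 61.6% and 34.1% of all tested genes). Of the 16, 7 (43.75%) were listed at 0 in every control library, beside 33.8% of all tested genes, and these 7 were all called higher. The split was 10 higher and 6 lower with median centring and 7 and 8 with quantile normalization. Among the ribosomal S6 kinases, RPS6KA2 was at 0 in control and at 35.7, 34.6 and 31.9 TPM in MT-treated libraries, whereas RPS6KA3 fell, with 39.99 ± 0.544 TPM in control and 6.66 ± 0.593 TPM after MT treatment (SD, n = 3 each; log2 difference -2.42). ELK1, a transcription factor that ERK phosphorylates, fell, with 17.6 ± 0.382 TPM in control and 1.03 ± 0.0902 TPM after MT treatment (SD, n = 3 each), while its DNA-binding partner SRF was at 0 in control and at 8.54 to 9.08 TPM in MT-treated libraries. JUN fell, with 55.5 ± 1.06 TPM in control and 6.49 ± 0.476 TPM after MT treatment (SD, n = 3 each), and FOS was at 0 in control and at 5.22 to 6.01 TPM in MT-treated libraries. ETV5, a widely used readout of FGF signalling, was at 0 in control and at 12.6, 24.0 and 37.0 TPM in MT-treated libraries, a spread of 49.8% (coefficient of variation), and ETV4 was at 0 in all libraries. The immediate early genes EGR1 and IER2 had at most 0.07 TPM and 32.0 to 36.0 TPM respectively, and IER2 was not called (adjusted p = 0.237, limma). It was called higher with median centring (0.42) and with quantile normalization (0.17).

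Across the 6 lists, which hold 109 genes with the 9 included, 72 identifiers were tested, 37 called higher and 32 lower (51.4% and 44.4%, beside 61.6% and 34.1% of all tested genes). Of the 72, 33.3% were listed at 0 in every control library, beside 33.8% of all tested genes. Over the 37 identifiers at 1 TPM or more in all libraries, the median log2 difference was -0.60, beside -0.27 over the 5988 such genes, with 8 called higher and 26 lower, beside 2177 and 3330. With median centring the counts over these identifiers were 14 higher and 18 lower, and no like counts over the 5988 genes are given here. Median centring gave 43 higher and 23 lower identifiers among the 72, beside 8412 and 3038 of the 11953 tested genes. Quantile normalization gave 28 and 40, beside 5550 and 5311. Of the 69 called, 52 kept their sign under both. These lists and the 9 genes share members and were chosen with earlier results known, so the counts are a description.

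**Figure D3:**
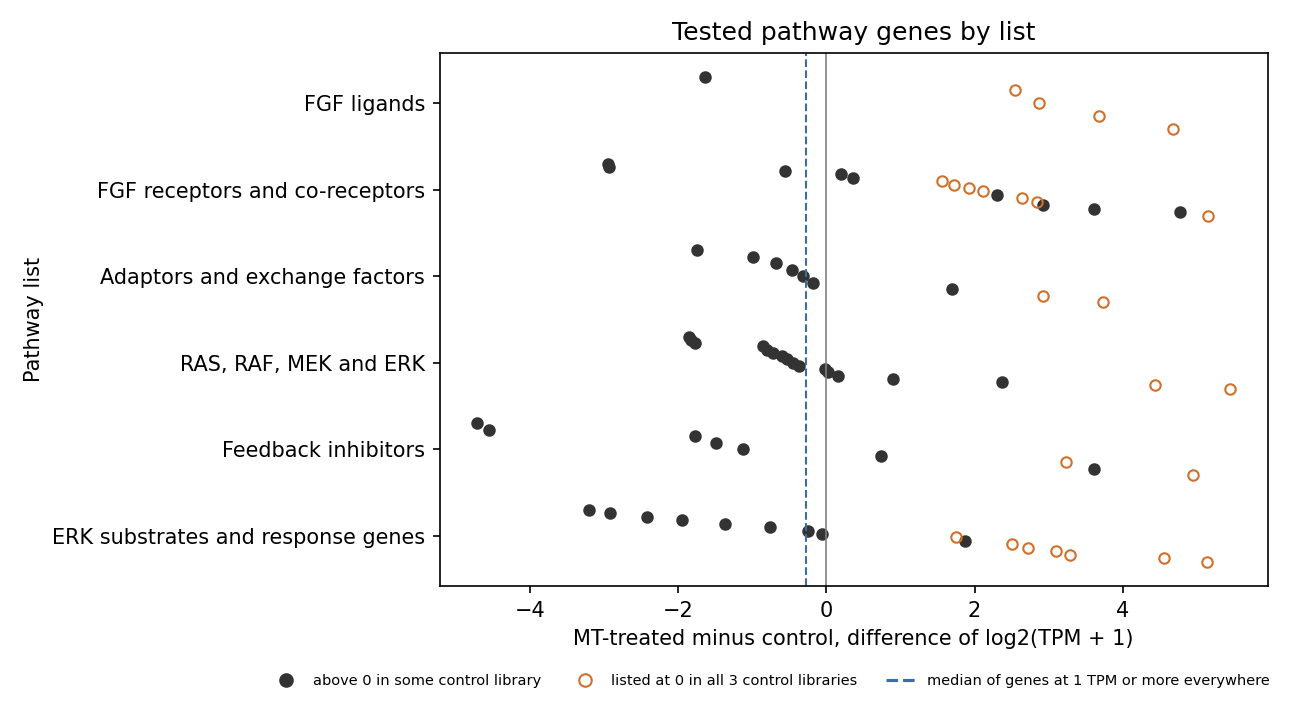
Difference between MT-treated and control in log2(TPM + 1) for each tested identifier of the 6 pathway lists. Open circles are genes listed at 0 in all 3 control libraries, whose position depends on the pseudocount of 1, and the dashed line marks the median of -0.27 over the 5988 genes at 1 TPM or more in all libraries. Genes above 0 in control lie on both sides of that line in each list with more than 1 of them.

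By level, the order in control was GRB2, DUSP6, MAP2K1 and MAPK3, with no overlap between neighbours and the other 5 genes tied at 0. In MT-treated blastocysts the order was GRB2, FGF2, MAP2K1, SPRY2, FGFR1 and FGFR2, with no overlap between neighbours, then DUSP6 and MAPK3, whose ranges of 0.56 to 0.89 TPM and 0.72 to 0.81 TPM overlapped, and FGF4 at 0. Replicates were close for most genes. The coefficient of variation ran from 1.33% for GRB2 to 17.4% for MAPK3 in control, and from 3.53% for SPRY2 to 23.1% for DUSP6 in MT-treated libraries.

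**Figure D4:**
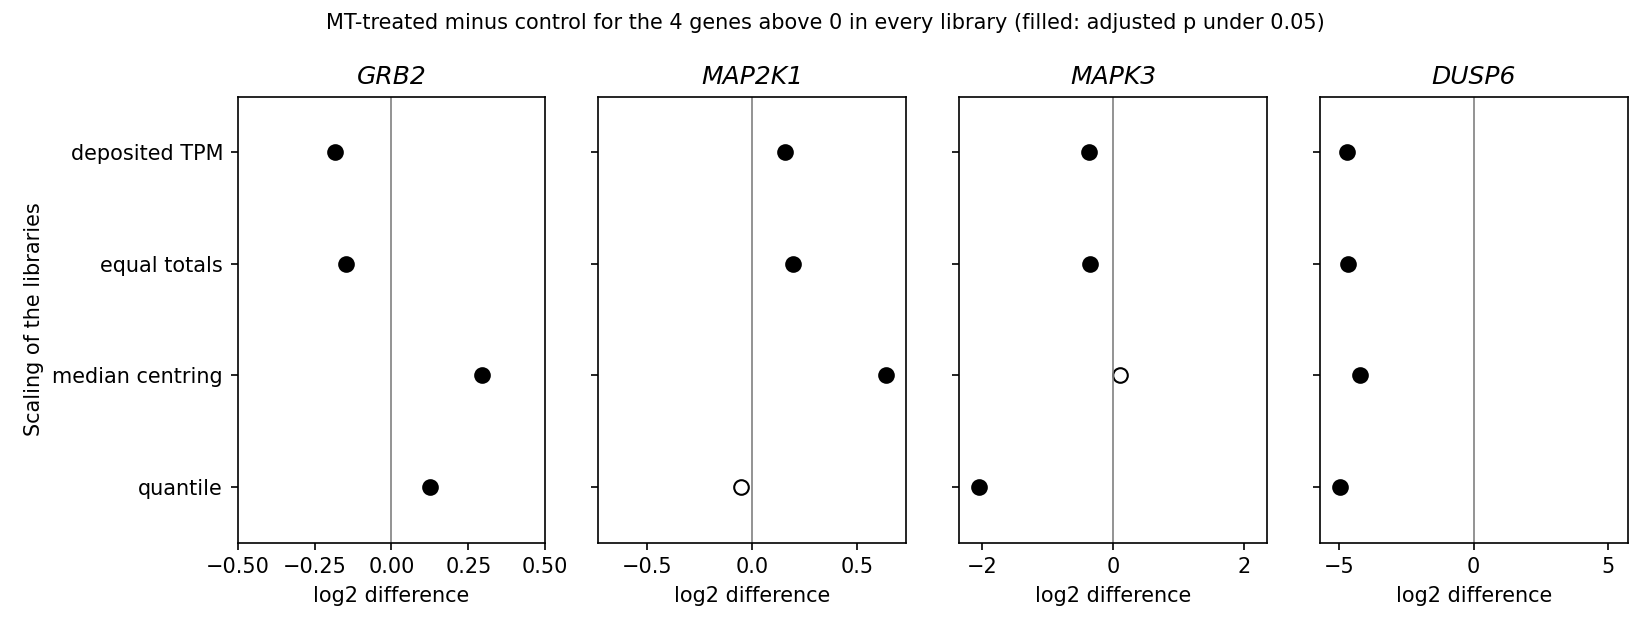
MT-treated minus control in log2(TPM + 1) for GRB2, MAP2K1, MAPK3 and DUSP6, the 4 genes of the set above 0 in all libraries, under 4 scalings of the libraries (filled, adjusted p under 0.05 by limma; the horizontal scale differs between panels). DUSP6 stays between -4.98 and -4.23, while GRB2, MAP2K1 and MAPK3 each change sign under at least 1 scaling. Median centring shifts log2(TPM + 1) by a constant, which for MAPK3, near 1 TPM, is not a scaling of its TPM.

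The tested gene with the most similar values over the 6 libraries, by Euclidean distance of log2(TPM + 1), was found for each gene of the set. For FGFR1 this was CD47 (distance 0.0366), for SPRY2 IL15RA (0.0374), for FGFR2 CREB3 (0.0417) and for FGF2 NELL2 (0.0511), each also listed at 0 in every control library. For MAP2K1 it was SEC23B (0.122), for GRB2 MICU2 (0.161), for MAPK3 ING2 (0.285) and for DUSP6 MPST (0.380). MPST had 42.92, 40.04 and 44.38 TPM in control and 0.70, 0.55 and 0.78 TPM in MT-treated libraries. With only 2 groups, a small distance says little more than that 2 genes have like levels in each.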

How the data were processed

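RNA of 6 bovine blastocyst pools was sequenced with paired ends on an Illumina NovaSeq. Values deposited by the authors are TPM with 2 decimals, 1 column per library. They state filtering with fastp and FastQC, alignment with STAR and counting with featureCounts. The sample labels name a TruSeq kit and ARS-UCD1.2, whereas the paper names Smart-seq2 and ARS-UCD1.3, so no coordinates are given, and how counts became TPM is not stated. The authors tested with DESeq2, which TPM does not allow.

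Groups came from the sample titles, and the MT concentration, maturation time and pool size from the paper. Replicates came from independent runs of in vitro production, and p-values measure the spread between these pools. Per the paper, oocytes of each run were pooled and divided among the treatments, so control and MT-treated libraries may share runs. Values were transformed to log2(TPM + 1). Genes with at least 1 TPM in at least 3 libraries were fitted in limma 3.58.1 (R 4.3.3) (lmFit, then eBayes with trend), with Benjamini-Hochberg adjustment over all tested genes and a threshold of 0.05. For within-library ratios, exact permutation tests (two-sided) were used, and 1 of the 5 ratios and some genes counted in the lists are not reported here. The genes of the set and the lists were chosen with earlier results of these data known, from general knowledge. From each list, up to 3 largest rises and 3 largest falls among called genes without overlap were named, with others added for context after their values were seen. On simulated data with 11953 genes, 90.5% of 200 genes changed by 1 log2 unit were recovered, with 10 false calls. Alternatives were another pseudocount (0.1), no filter, a minimum TPM of 5, 3 scalings, gene subsets, no trend, a replicate block and leaving out each library. Figures were made with Python 3.11.15 and matplotlib 3.10.9.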

Additional observations from a re-analysis of the deposited data

How the results depend on the processing

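Depth is unknown for TPM, and genes listed at 0 throughout control dominate the higher calls. Limiting the fit to the 6925 genes above 0 in all 6 libraries left 2814 genes called higher and 3626 lower, with 1 and 3 genes of the set and 11 and 32 pathway identifiers among them, since genes at 0 then drop out. Median centring left 1 gene of the set, DUSP6, called lower, with differences of 0.30 for GRB2 and 0.11 for MAPK3. Quantile normalization gave -2.05 for MAPK3, 0.13 for GRB2, -0.0514 for MAP2K1 and -0.0558 for FGFR2. Within-library ratios (difference MT-treated minus control, log2) with a pseudocount of 0.1 were -12.14 for DUSP6 to SPRY2, 7.95 for FGF2 to FGF4 and 0.87 for FGFR1 to FGFR2, in place of -7.95, 4.68 and 0.73. With FGF4 at 0 in all 6 libraries, its ratio only restates FGF2. With FGFR1 and FGFR2 both at 0 in control, their control ratio is 0 by construction, and the difference is the MT-treated ratio alone. After quantile normalization they were -5.485 for DUSP6 to SPRY2, 0.36 for FGFR1 to FGFR2 and -0.37 for MAP2K1 to MAP2K2 (-0.74 otherwise). The cause of these shifts was not tested. The counts over all genes and over the set kept their direction when each library was left out and when totals were made equal. The differences of the 8 tested genes did so too. Both also kept it without the trend, with genes with a symbol only, without a filter and with a minimum TPM of 5. At that minimum, MAPK3 and FGFR2 were no longer tested. The pathway identifiers, 37 higher and 32 lower in the main fit, were then 27 higher and 29 lower. Fitting the replicate number as a block gave 7379 genes higher and 4082 lower, with 5 and 3 genes of the set, and changed no call among them. Both groups may share runs, but the labels do not say that a number marks one. The correlations of deviations for numbers 1, 2 and 3 were 0.0671, -0.0283 and 0.139, so the libraries were not treated as pairs.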
